A study of Mus musculus with 4 samples.

Results

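The 6 mature miRNAs described here are neuron-enriched: mmu-miR-124-3p, mmu-miR-9-5p, mmu-miR-9-3p, mmu-miR-128-3p, mmu-miR-132-3p and mmu-miR-212-3p, printed without the species prefix from here on. They were chosen by name among the 1247 mouse miRNAs on the array, and all 6 had probes. They were measured in the stromal-vascular fraction (SVF) of visceral white adipose tissue (visWAT), the mix of fibroblasts, preadipocytes, vascular cells, blood cells and nerve remnants that digestion of fat yields beside the adipocytes. The 4 one-colour Agilent arrays held 2 samples from vehicle-treated mice (vehicle 1 and 2) and 2 from mice given CL-316243 (CL 1 and 2), an agonist of the β3-adrenergic receptor that promotes browning of white fat. Vehicle was PBS, CL was given at 1 mg/kg, and both treatments lasted 3 days. All mice were females aged 8 weeks. Each array carried RNA pooled from 5 of them. The strain labels of the 4 samples read C57/BL6, C57/BL7, C57/BL8 and C57/BL9 in turn, where the methods name a single strain. The labels call the injections subcutaneous, the methods intraperitoneal.

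In neurons, miR-124 and miR-9 repress transcripts of non-neuronal cells and are used as markers of neuronal identity, and both arms of the miR-9 hairpin are functional. miR-128 is abundant in brain, where it restrains neuronal excitability, and is encoded inside protein-coding genes. miR-132 and miR-212 come from a shared locus whose transcription is driven by CREB, the transcription factor that cAMP signaling activates, and they are also expressed outside the nervous system. Fat is innervated by sympathetic axons, but the cell bodies of those neurons lie in ganglia outside the tissue, so that SVF preparations hold axon fragments and Schwann cells more than neurons.

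Mature sequences of 5 of the 6 were taken from RefSeq (GRCm38.p6) to show which of them can act through the same seed, the stretch that pairs with target mRNAs. They are printed 5′ to 3′, and capitals mark bases 2 to 8.
miR-9-5p: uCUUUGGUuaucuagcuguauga
miR-9-3p: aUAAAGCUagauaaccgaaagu
miR-128-3p: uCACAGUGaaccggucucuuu
miR-132-3p: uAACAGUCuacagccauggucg
miR-212-3p: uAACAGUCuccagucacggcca
Only miR-132-3p and miR-212-3p shared a seed, and in 17 of 22 positions (77.3%) the whole sequences were identical. Among the miRNAs on the array with a mature sequence in RefSeq, no other carried a seed of these 5. The array distinguishes the pair by its 3′ part. Their longest probes are shown because they cover the part in which the 2 miRNAs differ. Capitals mark the probe bases that form no Watson-Crick pair (A with U or T, G with C) with the other miRNA. Wobble pairs of G with U or T are counted as unpaired.
miR-132-3p probe: CgAccAtgGctgTaga
miR-212-3p probe: TgGccGtgActgGa
The first probe covers bases 7 to 22 of miR-132-3p, the end of the seed included. The second covers bases 9 to 22 of miR-212-3p, beyond the seed. In each, 5 bases form no Watson-Crick pair with the other miRNA, and some of the 5 can form a wobble pair. How much each probe binds the other miRNA was not tested. Each of the 6 miRNAs was measured by 2 probes that differed by 1 nucleotide in length, each printed in 20 spots. The longest stretch that any of the 15-nucleotide miR-124-3p probe shared with another mature mouse miRNA in RefSeq was 8 bases.

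In GRCm38.p6, Mir212 (chr11:75173388-75173478) and Mir132 (chr11:75173682-75173747) lie 203 bases apart and within no other annotated gene. Mir128-1 (chr1:128202361-128202430) lies within the bounds of R3hdm1 and Mir128-2 (chr9:112118636-112118711) within those of Arpp21. The genes that encode miR-9 are Mir9-1 (chr3:88215598-88215686), Mir9-2 (chr13:83738814-83738885) and Mir9-3 (chr7:79505264-79505353), which lie within the bounds of Gm3764, C130071C03Rik and Mir9-3hg in that order. The genes Mir124a-1 (chr14:64590657-64590741), Mir124a-2 (chr3:17795662-17795770) and Mir124a-3 (chr2:180894040-180894107) encode miR-124, with Mir124a-1 and Mir124a-2 inside the host genes Mir124a-1hg and Mir124-2hg. An array of mature miRNAs cannot tell which of several genes a signal came from.

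The arrays shared 1 slide. Row 1 carried the vehicle pair and row 2 the CL pair, and row and treatment cannot be told apart. Vehicle 1 and CL 1 shared a column, as did vehicle 2 and CL 2. Negative control spots, which carry no miRNA probe, had median signals (linear intensity units) of 37.0 (vehicle 1), 31.2 (vehicle 2), 38.4 (CL 1) and 32.2 (CL 2), so that the second column was dimmer in both groups. Of the 1000 negative control spots of an array, 4 to 7 were marked as well above background by the scanner software. The software detected 386 to 431 miRNAs per array, and all 13 markers of fibroblasts, mural cells, endothelium, leukocytes and red cells examined were among those detected on all 4 arrays. The liver miRNA miR-122-5p was detected on none. The skeletal muscle miRNAs miR-1a-3p, miR-133a-3p and miR-206-3p were detected on all 4, with overlapping groups. With 4 arrays precision is limited throughout, and p-values measure the spread between these 4 pools only.

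Of the 6 neural miRNAs, miR-124-3p, miR-128-3p, miR-132-3p and miR-212-3p were detected by the scanner software on all 4 arrays, and both arms of miR-9 on none. Over the whole array, 29% of miRNAs were detected on all 4 arrays and 63.6% on none. The same 4 were detected on all 4 arrays when a probe had to have at least 10 of its 20 spots well above background, and when the median of the brightest probe had to exceed the 99th percentile of the negative controls. The 4 did not stand equally clear of the background.

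**Figure D1:**
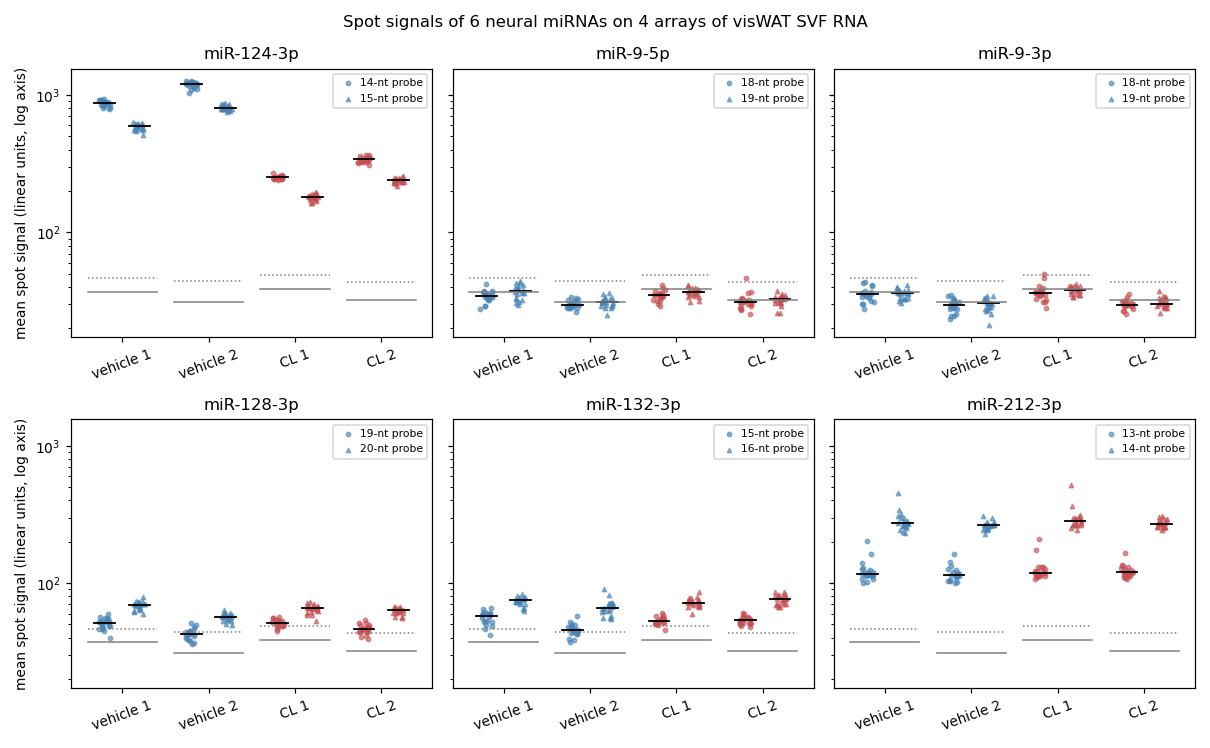
Mean signal of every spot (linear intensity, log axis) for both probes of each miRNA on the 4 arrays, with circles for the shorter and triangles for the longer probe and black bars for medians; blue is vehicle and red is CL. Grey lines give the median (solid) and 99th percentile (dotted) of the negative controls of each array: miR-9-5p and miR-9-3p lie around the solid lines, the longer probes of miR-128-3p and miR-132-3p mostly just above the dotted ones, and the CL spots of miR-124-3p below all of its vehicle spots.

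Neither arm of miR-9, the miRNA of neural progenitors and neurons, was measurable. On the 19-nucleotide probe of miR-9-5p the median spot signal was 37.3 (vehicle 1), 31.2 (vehicle 2), 36.8 (CL 1) and 32.6 (CL 2). On that of miR-9-3p it was 36.2, 30.3, 38.1 and 30.3 in the same order. These are 0.94 to 1.01 times the median of the negative controls, and they moved with the column of the slide as those controls did. None of the 80 spots per array in which the 2 arms were printed was well above background. Levels of miR-9 below this background were not detectable here, and no difference between groups was tested.

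miR-128-3p was detected close to the limit. The medians of its 20-nucleotide probe were 69.5 (vehicle 1), 57.1 (vehicle 2), 65.6 (CL 1) and 63.8 (CL 2), or 1.71 to 1.98 times the negative controls, and 19 or 20 of the 20 spots were well above background. Its 19-nucleotide probe, shorter by a single base, had only 3 to 6 such spots per array. Normalized to the other arrays and summarised over all spots, its log2 signal was 5.18 and 5.06 in vehicle-treated and 5.27 and 5.27 in CL-treated SVFs. The arms opposite miR-128-3p, miR-128-1-5p and miR-128-2-5p, which would tell its 2 genes apart, were detected on no array.

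miR-132-3p was also dim. Its 16-nucleotide probe had medians of 74.9 (vehicle 1), 66.3 (vehicle 2), 72.0 (CL 1) and 76.3 (CL 2), 1.88 to 2.37 times the negative controls, and all 20 spots were well above background on each. On the 15-nucleotide probe 17, 9, 4 and 20 spots were well above background on the 4 arrays in that order. The raw spot signals of the groups overlapped. After normalization the log2 signals were 5.37 and 5.30 for vehicle and 5.46 and 5.55 for CL.

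miR-212-3p, from the same locus and with the same seed, stood clear of the background on both probes. Its 14-nucleotide probe gave medians of 272.5 (vehicle 1), 264.3 (vehicle 2), 285.2 (CL 1) and 271.4 (CL 2), 7.37 to 8.48 times the negative controls. Every spot of both probes was well above background on every array. Its log2 signal was 7.18 and 7.30 in vehicle-treated SVFs and 7.50 and 7.37 in CL-treated SVFs. The opposite arms miR-132-5p and miR-212-5p were detected on no array.

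miR-124-3p, the miRNA most closely tied to neurons, gave a clear signal on all 80 spot readings of its 15-nucleotide probe and on all 80 of the 14-nucleotide one. On the 14-nucleotide probe the median spot signal was 874.7 on vehicle 1 and 1204 on vehicle 2, and 251.0 on CL 1 and 338.6 on CL 2. On the 15-nucleotide probe it was 594.1 and 802.2 against 181.7 and 239.8. The shorter probe was thus the brighter on every array, whereas for miR-128-3p, miR-132-3p and miR-212-3p the longer probe was. What this says about the source of the miR-124-3p signal was not tested. Even the dimmest of the miR-124-3p medians was 4.74 times the negative controls of its array. No CL spot reached any vehicle spot: the highest CL spot of the 14-nucleotide probe was at 365.3 and the lowest vehicle spot at 789.3. The background-subtracted total that the scanner software gives for the miRNA was 538.2 and 757.6 for vehicle and 138.2 and 200.5 for CL. Its opposite arm miR-124-5p was detected on no array.

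The question of the comparison was which miRNAs differ between CL-treated and vehicle-treated SVFs. The 4 detected miRNAs were among the 425 that entered limma's moderated test, which required detection on both arrays of at least 1 group. The log2 signal of miR-124-3p was 9.26 and 9.94 in vehicle-treated SVFs and 7.76 and 8.08 in CL-treated SVFs. The group means were 9.60 ± 0.48 (SD, n = 2 arrays) and 7.92 ± 0.23 (SD, n = 2), which differ by −1.68 on the log2 scale (standard error 0.28, 95% interval −2.42 to −0.94), or a 3.21-fold lower signal after CL. Its unadjusted p was 0.00259 and its adjusted p 0.0917 from limma with Benjamini-Hochberg adjustment, so that it missed the adjusted threshold of 0.05, as did all others (0% of 425 passed). At an unadjusted p of 0.05, 35.1% of the tested miRNAs were called and 16.2% were called lower after CL, and 1 of the 4, miR-124-3p, was among them. Of the 425, 4 had a larger decrease. The vehicle arrays of miR-124-3p were themselves 0.68 apart. It was lower in both columns of the slide, by −1.50 between CL 1 and vehicle 1 and by −1.86 between CL 2 and vehicle 2. Blocking on the column gave it an adjusted p of 0.00595 from limma, in a fit that called 20.2% of tested miRNAs and 9.41% in the lower direction.

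The other 3 did not pass either threshold. The log2 fold change was 0.15 for miR-128-3p (standard error 0.12, 95% interval −0.18 to 0.47, adjusted p = 0.417 from limma). For miR-132-3p it was 0.18 (standard error 0.12, 95% interval −0.14 to 0.50, adjusted p = 0.318 from limma). For miR-212-3p it was 0.19 (standard error 0.13, 95% interval −0.15 to 0.54, adjusted p = 0.313 from limma). Both CL arrays were above both vehicle arrays in all 3, and miR-124-3p separated the groups too, downward. The groups did not overlap in 72.9% of all tested miRNAs, with CL lower in 34.8% and higher in 38.1%, so that separation sets none of the 4 apart, and the exact permutation test of each gave a two-sided p of 0.333, the smallest that 2 arrays against 2 allow. The intervals of the 3 leave room for changes of up to 0.54 on the log2 scale. The background-subtracted totals of the scanner software overlapped between groups for the 2 dimmest, with 18.9 and 14.7 (vehicle) against 16.8 and 18.2 (CL) for miR-128-3p and 23.6 and 19.7 against 20.2 and 26.3 for miR-132-3p. Once these totals had been quantile-normalized between arrays, the log2 differences were 0.77 and 0.46, and neither passed.

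**Figure D2:**
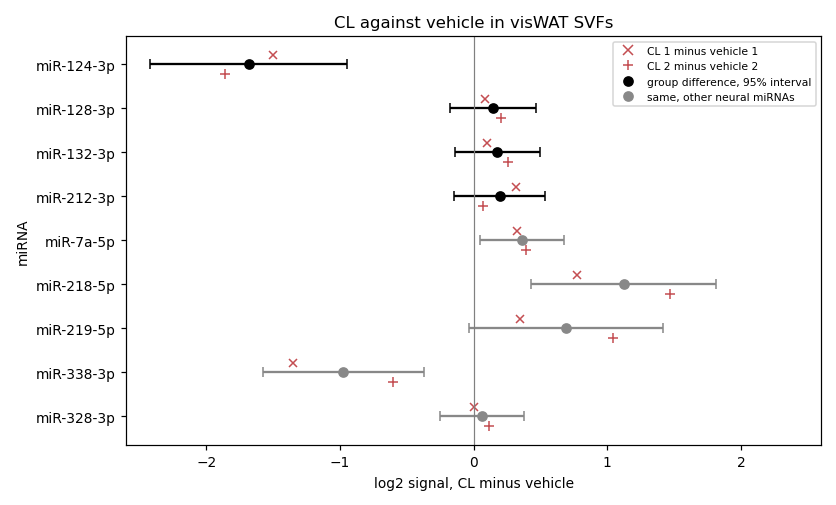
Log2 signal of CL minus vehicle with its 95% interval from limma for the 4 detected neural miRNAs (black) and the 5 tested miRNAs of the wider neural list (grey); red crosses and plus signs give the differences within each column of the slide. The interval of miR-124-3p runs from −2.42 to −0.94, and those of miR-128-3p, miR-132-3p and miR-212-3p span 0.

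The 2 probes of miR-124-3p gave the same size of difference, with log2 fold changes of −1.69 on 14 nucleotides and −1.66 on 15. In the deposited log2 table it was −1.58 and limma gave an adjusted p of 0.180. The array carried a general trend beside it: across the 425 tested miRNAs, which share arrays and are not independent, the log2 fold changes followed the share of C in the longest probe (Spearman's rho −0.43) and its length (rho 0.47). The longest probe of miR-124-3p has 15 nucleotides and 33.3% C, against medians of 17 nucleotides and 31.8% C. Of the 52 tested miRNAs whose longest probe has 15 nucleotides, the median log2 fold change was −0.14 and 1 had a larger decrease than miR-124-3p. With the trend on probe composition and length removed from each array, the log2 fold change of miR-124-3p was −1.53 (adjusted p = 0.0211 from limma), in a fit that called 51 of the 425.

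**Figure D3:**
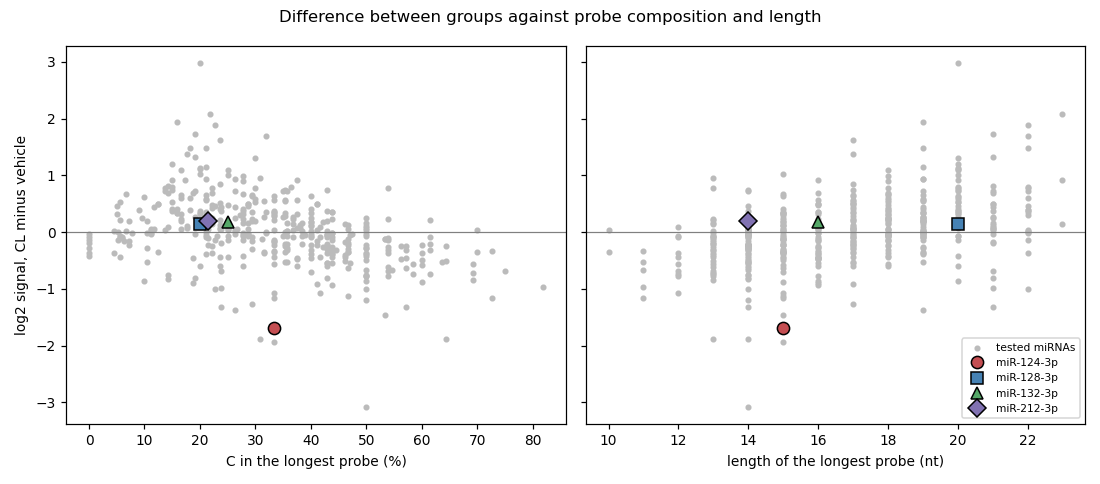
Log2 signal of CL minus vehicle for the 425 tested miRNAs (grey) against the share of C in the longest probe of each (left, percent) and its length (right, nucleotides), with the 4 detected neural miRNAs marked. miR-124-3p lies below most miRNAs of like C share and length, whereas miR-128-3p, miR-132-3p and miR-212-3p lie close to 0.

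The miRNAs nearest in pattern were found by the root mean square difference of log2 signals over the 4 arrays, after each miRNA was centred on its own mean. This is a description of 4 points and has no test. For miR-124-3p they were miR-6386 (0.12), miR-1896 (0.14) and miR-721 (0.14), none of them on the neural lists. All 3 were brighter on vehicle 2 than on vehicle 1 and lower on both CL arrays, with log2 fold changes of −1.47, −1.88 and −1.94, and their longest probes have 14 or 15 nucleotides and 33.3% to 64.3% C. For miR-132-3p the nearest were let-7c-5p (0.0086), miR-5117-3p (0.032) and miR-30b-3p (0.038). For miR-128-3p they were miR-501-3p (0.020), miR-28c (0.025) and miR-28a-5p (0.031), and for miR-212-3p they were miR-5117-5p (0.029), miR-712-5p (0.037) and miR-6351 (0.039). The 3 nearest to each of these differed between groups by 0.12 to 0.21 on the log2 scale.

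A wider list of 22 neural miRNAs, with the opposite arms of the hairpins above and further miRNAs known from neurons and glia, was measured on the same arrays. On no array were 16 of the 22 detected, among them all 5 opposite arms, and the neuronal miR-137-3p, miR-153-3p and miR-488-3p. One further miRNA, miR-149-5p, was detected on vehicle 1 and CL 2 only, although its log2 signals lay between 4.58 and 4.72 on all 4 arrays. The remaining 5 were detected on all 4 arrays and tested. Their median log2 fold change was 0.36, against −0.01 over all 425 tested miRNAs, and none passed the adjusted threshold. At an unadjusted p of 0.05 from limma, 2 were higher and 1 was lower, where 18.8% of all 425 were higher and 16.2% lower.

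The highest of these differences was that of miR-218-5p, which is expressed in motor neurons and also derives from introns of the axon guidance genes Slit2 and Slit3. Its log2 signal was 6.59 and 5.89 in vehicle-treated and 7.36 and 7.36 in CL-treated SVFs, 1.12 apart on the log2 scale (standard error 0.26). Its adjusted p was 0.102 from limma and 0.0250 when blocked on the column. The vehicle arrays of miR-218-5p were 0.69 apart. miR-7a-5p, found in neuroendocrine cells, was at 4.91 and 4.82 against 5.23 and 5.21, 0.36 apart, with an adjusted p of 0.123 from limma.

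Of the 2 glial miRNAs, miR-338-3p was lower at the unadjusted threshold and miR-219-5p was not called. miR-338-3p, known from oligodendrocytes and hosted by the neuronal kinase gene Aatk, had log2 signals of 6.42 and 5.88 in vehicle-treated and 5.07 and 5.27 in CL-treated SVFs. The difference was −0.98 (standard error 0.23), with an adjusted p of 0.102 from limma and 0.0347 when blocked on the column. The scanner totals of miR-338-3p overlapped, with 72.1 and 40.9 (vehicle) against 49.1 and 22.1 (CL). Its CL 1 total was 3.13 times the sum of its probes, which was 15.7. miR-219-5p, a driver of oligodendrocyte differentiation, was at 5.40 and 4.67 against 5.75 and 5.71, 0.69 apart, with an adjusted p of 0.150 from limma. On vehicle 2 only 3 of the 20 spots of its 21-nucleotide probe were well above background, against all 20 on each other array. Its scanner totals overlapped, with 23.8 and 39.3 (vehicle) against 27.1 and 29.5 (CL). The vehicle 2 total of miR-219-5p was 4.97 times the sum of its probes. miR-328-3p was at the limit of detection, with 2 to 5 of 20 spots well above background, and its log2 fold change was 0.06.

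As a set of nerve and glia markers, miR-124-3p, miR-338-3p and miR-219-5p were detected, whereas miR-9-5p and miR-137-3p were at the background. The summed normalized signal of the 5 was 769.9 and 1095 in vehicle-treated SVFs and 332.7 and 391.8 in CL-treated SVFs, most of it from miR-124-3p. The detected markers went different ways, with miR-124-3p at a log2 fold change of −1.68, miR-338-3p at −0.98 and miR-219-5p, not called, at 0.69. The lower sum therefore does not show that the set as a whole was lower. In bulk RNA, fewer cells of a type and less of a miRNA per cell cannot be told apart. Markers of the other cells of the SVF differed between groups as well. Of the 13, 7 were higher and 4 lower after CL at an unadjusted p of 0.05, where 16.2% of all tested miRNAs were lower and 18.8% higher. Both endothelial arms were lower, miR-126-3p at a log2 fold change of −1.37 and miR-126-5p at −0.80, and of the mural pair miR-145a-5p was at −0.75 and miR-143-3p, not called, at −0.43. The 3 fibroblast markers were higher, at 0.95 to 1.15. The red cell markers were also higher, miR-144-3p at 2.98 and miR-451a at 0.73. The leukocyte markers went different ways, with miR-142-3p at 2.09, miR-142-5p at 1.95, miR-150-5p at −0.89 and miR-223-3p, not called, at 0.09. The summed normalized signal of the 13 was 27333 to 28580 in vehicle-treated and 27973 to 29169 in CL-treated SVFs. Most of it came from miR-126-3p, which was lower after CL, and miR-451a, which was higher. The like sums therefore do not show that the markers were unchanged. None of the 13 was at the background. The part of these markers' cells in the lower signal of miR-124-3p was not tested.

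**Figure D4:**
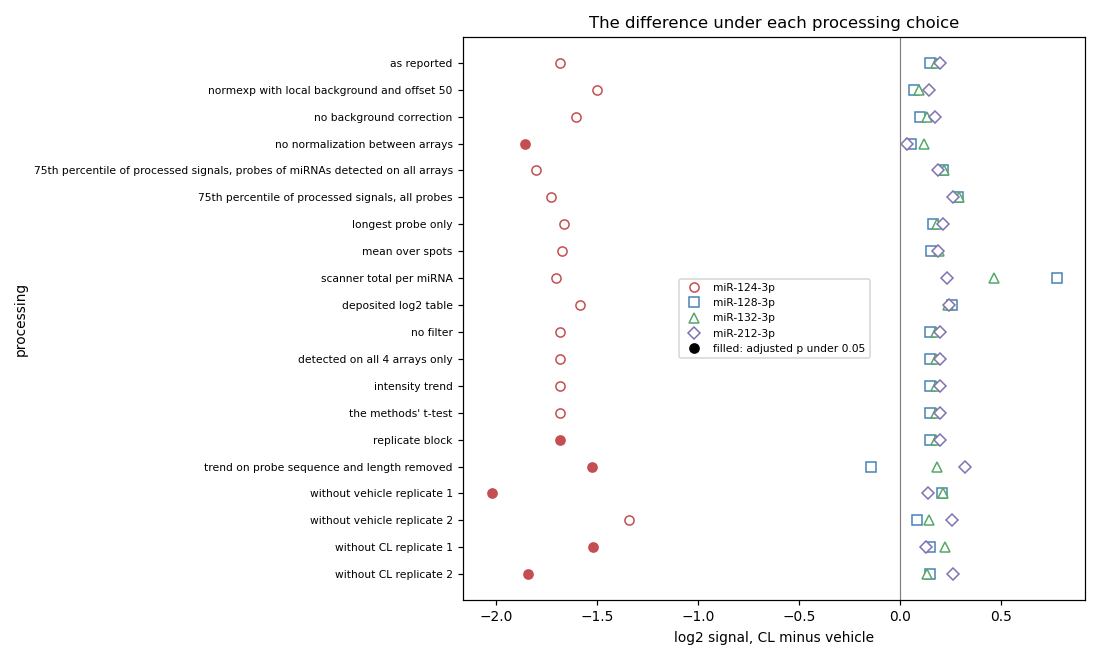
Log2 signal of CL minus vehicle for the 4 detected neural miRNAs under each processing choice, filled where the adjusted p was under 0.05. The difference of miR-124-3p stays between −2.02 and −1.34, and no other of the 4 is filled in any row. Rows with an array left out have a lone array in 1 group, and their fill is not read.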

How the data were processed

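The authors deposited Feature Extraction 10.7.1.1 files of 4 one-colour Agilent mouse miRNA arrays with the linear intensity of each spot. They also deposited a table of processed log2 values of the same arrays, with medians of −3.31 and −3.30 (vehicle 1 and 2) and −3.20 and −3.26 (CL 1 and 2); how it was scaled and centred is not given in the sources used here. Groups came from the sample labels. RMA and SAM are the procedures that the methods give for arrays. In the manner of RMA, mean spot intensities were corrected with normexp over all spots (limma 3.58.1, R 4.3.3) and control and outlier spots were dropped. Quantile normalization and median polish then gave 1 log2 signal per miRNA and array. Of 1247 miRNAs, 425 were detected on both arrays of a group and were tested by lmFit and eBayes (two-sided), and p-values were adjusted by Benjamini-Hochberg over all 425. SAM was not run. On simulated arrays with 50 miRNAs changed by 1 on the log2 scale, this test recovered 63.3% at an adjusted p of 0.05. The simulated noise was independent between miRNAs, without the column effect or probe trend of the real arrays. The share therefore does not give the power on these data. Coordinates are those of RefSeq; the file headers name mm9, but the positions listed for both probes of a miRNA include 1 inside each gene named. The 6 miRNAs and all lists were chosen with earlier results of these data known. Named were the 6, tested or unevenly detected members of the wider neural list, and the 3 miRNAs nearest in pattern; the undetected ones and the markers were named beside their counts. Alternatives were other background corrections, scalings, summaries, filters and tests, the block, the probe trend, the deposited table, and each array left out.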

Additional observations from a re-analysis of the deposited data

How the results depend on the processing

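The lower signal of miR-124-3p kept its direction under all 19 alternatives. Where no array was left out, its adjusted p-values from limma or the methods' t-test were 0.00155 to 0.328. miR-124-3p passed the adjusted threshold of 0.05 without normalization between arrays (−1.86) and with the replicate number (also the slide column) as a block (−1.68). It also passed after removal of the probe trend (−1.53). In these 3 fits 1 of the 6 passed instead of 0. These 3 fits called 64, 86 and 51 of all 425 tested miRNAs, against 0. With an array left out, the log2 fold change of miR-124-3p was −2.02 (without vehicle 1) to −1.34 (without vehicle 2). In these fits the lone array is assumed to vary like the other group. Without CL 1 or CL 2, limma gave all 4 detected miRNAs the same standard error (0.39). Only effect sizes are therefore given for fits with a lone array. miR-128-3p turned to −0.14 with the probe trend removed. With all arrays kept, neither it, miR-132-3p nor miR-212-3p passed the adjusted threshold under any alternative. The unadjusted p from limma was 0.0138 for miR-128-3p with scanner totals, where 120 of 425 were called at 0.05. It was 0.0427 for miR-132-3p without the filter (211 of 1247 called) and 0.0336 for miR-212-3p with the probe trend removed (166 of 425). Of the wider neural list, 2 passed instead of 0 without normalization, with the replicate block and with the probe trend removed. The cause was not tested. The deviations of same-numbered arrays correlated at 0.12 over the 425 miRNAs, and the labels do not pair the arrays by number. SAM was not run. Signal over background limits miR-9, miR-128-3p and miR-132-3p.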
